A study of Homo sapiens with 9 samples.

Results

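Nuclear genes that encode subunits of the mitochondrial respiratory chain and ATP synthase were followed in a YAP knockdown experiment. They were chosen by symbol, as genes of the NDUF, SDH, UQCR, CYC1, COX4 to COX8 and ATP5 families on probe sets that the array annotation gives to a single gene. This gave 79 genes on 86 probe sets, of 18417 genes on 19460 such probe sets, with 33 genes of complex I, 3 of complex II, 9 of complex III, 16 of complex IV and 18 of complex V. The experiment used Hep3B, a human hepatocellular carcinoma cell line, in 3 groups with 3 arrays each. The first group received an siRNA against YAP, the second a nonsense siRNA that serves as the transfection control, and the third was left untreated. Both siRNAs were delivered with Oligofectamine, and RNA was taken 24 h later. The labels give 24 h of growth for all 3 groups, and the 24 h after transfection for the siRNA groups only. Time in culture may therefore differ between the siRNA arrays and the untreated arrays. A small interfering RNA (siRNA) lowers the transcript it matches, and YAP, the product of YAP1, is the transcriptional coactivator held back by the Hippo pathway. The titles begin with HUH, whereas Hep3B is the line given elsewhere in the labels, and that name is used here. Separate cultures are not mentioned in the labels for the samples of a group, so a p-value here measures the spread between these samples, which may be technical.

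The respiratory chain passes electrons from NADH through complex I, and from succinate through complex II, to ubiquinone, then through complex III, cytochrome c and complex IV to oxygen. Complexes I, III and IV pump protons across the inner mitochondrial membrane, and complex V, the ATP synthase, makes ATP from the returning protons. Most subunits are encoded in the nucleus, where factors such as NRF1, GABP (an ETS family factor) and YY1 are known to act on their promoters, and the coactivator PGC-1α, encoded by PPARGC1A, is known to raise their transcription in liver and muscle. The subunits encoded in mitochondrial DNA were not analysed here. Subunit genes without a probe set of their own in the array annotation were not analysed here. The 79 genes include the pseudogenes UQCRBP1 and ATP5F1EP2, and 45 of the 79 have at least 1 pseudogene named after them in the RefSeq annotation, so that part of their probe signal may come from near-identical copies.

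NDUFS1 and ATP5PO were the subunit genes that passed the test after YAP siRNA, and the stretches upstream of their starts are shown to place them beside the known promoter motifs of the family. Upstream bases came from RefSeq (GRCh38.p14) and are written along the gene's strand, which is the minus strand for each gene shown, with motif matches in capitals. The motifs searched on both strands were GCGCATGC for NRF1, CCGGAAGT for GABP and other ETS factors, AAGATGGC for YY1, and GGAATG for TEAD, the DNA-binding partner of YAP. None of the 4 motifs contains another, and the NRF1 motif can overlap its own reverse complement, GCATGCGC. The 250 bases before the NDUFS1 start (chr2:206159445-206159694) hold 1 ETS match, read on the opposite strand, whose first base lies 158 bases before the start; the window of the other annotated NDUFS1 start holds none.
NDUFS1: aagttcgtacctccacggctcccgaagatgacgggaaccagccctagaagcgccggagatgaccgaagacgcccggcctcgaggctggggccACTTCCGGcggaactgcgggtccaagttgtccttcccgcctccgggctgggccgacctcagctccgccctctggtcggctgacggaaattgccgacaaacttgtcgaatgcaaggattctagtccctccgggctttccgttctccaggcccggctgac
The 250 bases before the ATP5PO start (chr21:33915805-33916054) hold none of the 4 motifs.
ATP5PO: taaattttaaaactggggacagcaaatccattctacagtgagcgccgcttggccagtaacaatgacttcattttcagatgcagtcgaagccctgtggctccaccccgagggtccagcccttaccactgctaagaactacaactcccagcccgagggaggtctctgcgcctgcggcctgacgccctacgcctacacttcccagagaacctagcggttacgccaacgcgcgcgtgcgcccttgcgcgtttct
A YY1 match lies just after the ATP5PO start, in the piece at chr21:33915755-33915784.
ATP5PO, after the start: cctacagccgcccgggagAAGATGGCtgcc
ATP5PF, which encodes coupling factor 6 of the same peripheral stalk as ATP5PO, is shown for comparison because its 2 windows together hold NRF1, ETS and YY1 matches; the first (chr21:25735055-25735304) has the NRF1 match 120 bases and the YY1 match 57 bases before the start.
ATP5PF: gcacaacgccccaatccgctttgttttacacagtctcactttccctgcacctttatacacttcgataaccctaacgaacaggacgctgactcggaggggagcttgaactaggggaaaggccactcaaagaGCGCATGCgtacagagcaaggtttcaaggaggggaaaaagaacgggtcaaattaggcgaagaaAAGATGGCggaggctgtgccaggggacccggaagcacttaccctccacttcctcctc

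Promoter windows of 300 bases, 250 before and 50 after a start, were found for 64 of the 79 genes, 76 windows in all. The NRF1 motif was present in 18.4% of these windows, the ETS motif in 15.8%, the YY1 motif in 15.8% and the TEAD motif in 9.21%. Over all 35116 windows in the table the shares were 3.05% for NRF1, 4.14% for ETS, 2.89% for YY1 and 14.03% for TEAD. Over the 20109 windows of genes measured here they were 3.67%, 5.45%, 3.64% and 12.12% in the same order. A match describes the letters only and is no measured binding site.

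The YAP1 probe set read 7.54, 7.52 and 7.48 on the YAP siRNA arrays, against 8.66, 8.75 and 8.68 on the nonsense siRNA arrays and 8.78, 8.62 and 8.69 on the untreated arrays (log2 signal). It fell by 1.18 on the log2 scale relative to nonsense siRNA, to 44.0% of that level (limma adjusted p = 4.337e-09). Array medians lay between 7.287 and 7.335. Of the hepatocyte and hepatoma markers, 8 of 9 were measured, with mean log2 signals from 8.76 to 12.4. The 5 measured leukocyte markers of 6 had means from 5.99 to 8.01 and the 6 stromal and endothelial markers from 6.43 to 8.39. Probe affinities differ, so these ranges give the signals and do not show which genes were expressed more. None of these markers passed in any comparison by limma. At an unadjusted p under 0.05 there were 0 for YAP siRNA against nonsense siRNA, beside 15.8% of all genes. There were 2 for YAP siRNA against untreated cells and 2 for nonsense siRNA against untreated cells, beside 15.8% and 19.5% of all genes. Some arrays stood apart for the respiratory chain genes. Nonsense siRNA replicate 2 was the lowest of its group for 56 of the 79 (70.9%), against 33.8% of all genes. Nonsense siRNA replicate 3 was the highest of its group for 45 (57%), against 31.4%. Untreated replicate 3 was the highest of its group for 49 (62%), against 43.4%. The results are therefore also given without nonsense siRNA replicate 2, with the medians and counts without nonsense siRNA replicate 3 beside them.

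Respiratory chain transcripts as a group lay close to their control levels 24 h after YAP siRNA. A gene was counted as lower or higher when its limma moderated test, with Benjamini-Hochberg adjustment over all 18417 genes, gave an adjusted p under 0.05. Against nonsense siRNA 2 of the 79 genes (2.53%) were lower, NDUFS1 and ATP5PO, and the share of all genes called lower was 2.61%. None was higher, against 1.92% of all genes, and 12 of the 79 (15.2%) had an unadjusted p under 0.05, against 15.8% of all genes. The median difference over the 79 was -0.03 on the log2 scale, beside 0.01 over all genes, with a range of -0.34 to 0.24. For 77 of the 79 the 95% interval of the difference lay within 0.5 of 0, and for 56 within 0.3.

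Against untreated cells the same 2 genes, NDUFS1 and ATP5PO, were lower (2.53%), where 1.46% of all genes were called lower. None of the 79 was higher, where 1.63% of all genes were called higher, and 4 of the 79 (5.06%) had an unadjusted p under 0.05, against 15.8% of all genes. The median difference was 0.02, beside -0.01 over all genes, with a range of -0.27 to 0.23. Both comparisons use the same YAP siRNA arrays, so the second is no independent repeat of the first. The 3 YAP siRNA arrays lay below all 6 control arrays for NDUFS1, ATP5PO and COX7A1, 3.8% of the 79 against 3.61% of all genes, and above all 6 for NDUFA9, 1.27% against 4.29%.

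**Figure D1:**
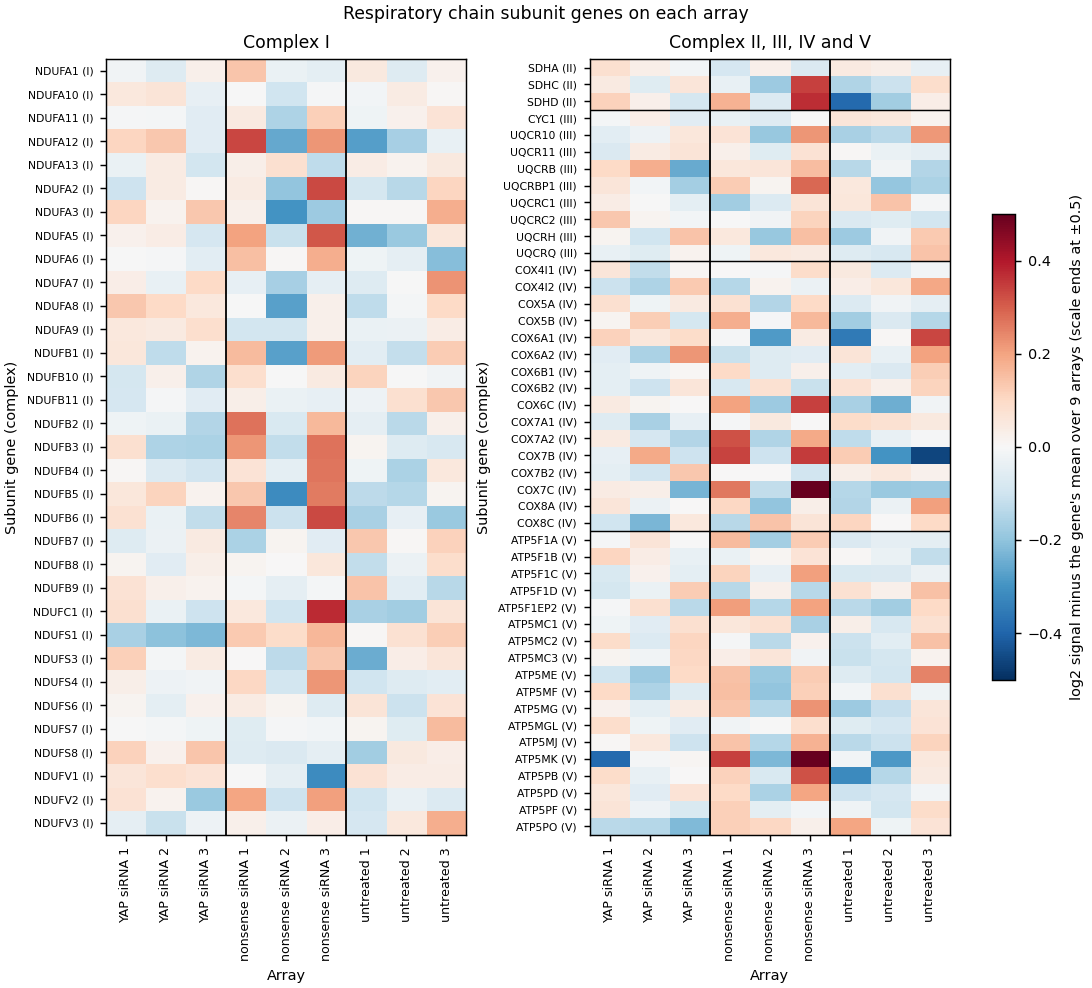
Log2 signal of each of the 79 subunit genes on each of the 9 arrays, minus the gene's mean over the 9 arrays, by complex; colours end at 0.5 either side of 0. NDUFS1 and ATP5PO are below their mean on all 3 YAP siRNA arrays, and many genes differ in colour between nonsense siRNA replicate 2 and the other nonsense siRNA arrays.

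Complex I takes electrons from NADH and consists of core subunits, some of which carry the flavin and the iron-sulfur clusters, and accessory subunits. Its largest core subunit, NDUFS1, binds iron-sulfur clusters in the NADH-oxidising arm. NDUFS1 read 9.33, 9.28 and 9.26 on the YAP siRNA arrays, against 9.62, 9.58 and 9.65 on the nonsense siRNA arrays and 9.49, 9.56 and 9.61 on the untreated arrays. All 3 YAP siRNA arrays lay below all 6 control arrays, and both control groups overlapped. NDUFS1 fell by 0.33 on the log2 scale relative to nonsense siRNA (SE 0.0525, 95% interval -0.44 to -0.21, adjusted p = 0.00158), to 79.8% of that level. It fell by 0.27 against untreated cells (95% interval -0.38 to -0.15, adjusted p = 0.009933), to 83.2%. Nonsense siRNA against untreated cells gave 0.06 (adjusted p = 0.523). In RNA of whole cultures, less transcript in each cell and fewer cells that carry it cannot be told apart.

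NDUFS1 was lower whichever single array was left out, with adjusted p of at most 0.01143 against nonsense siRNA and 0.04953 against untreated cells. It has no pseudogene named after it in the annotation. The other 5 measured core subunits of complex I did not pass, and their differences against nonsense siRNA ranged from -0.13 for NDUFV2 to 0.19 for NDUFV1. NDUFV1, the flavin-binding subunit that accepts electrons from NADH, read 10.22, 10.24 and 10.22 on the YAP siRNA arrays, against 10.16, 10.11 and 9.84 on the nonsense siRNA arrays and 10.23, 10.20 and 10.19 on the untreated arrays. Its low value was on nonsense siRNA replicate 3, and the YAP siRNA and untreated arrays overlapped.

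Of the 27 accessory subunits of complex I, 5 had an unadjusted p under 0.05 for YAP siRNA against nonsense siRNA (18.5%, beside 15.8% of all genes). For YAP siRNA against untreated cells there were 0, beside 15.8% of all genes. For nonsense siRNA against untreated cells there were 8 (29.6%, beside 19.5%). None of the 27 passed in any comparison. Among them, NDUFA3 had the largest positive difference against nonsense siRNA, with 8.84, 8.75 and 8.87 on the YAP siRNA arrays, 8.76, 8.43 and 8.55 on the nonsense siRNA arrays and 8.74, 8.74 and 8.91 on the untreated arrays. That difference was 0.24 (adjusted p = 0.1009), and the YAP siRNA arrays overlapped the untreated ones. NDUFB8, a membrane-arm subunit whose protein is often used as a marker of assembled complex I, read 9.08, 9.01 and 9.10 after YAP siRNA, 9.08, 9.07 and 9.13 after nonsense siRNA and 8.95, 9.04 and 9.16 in untreated cells. Its differences were -0.03 against nonsense siRNA and 0.02 against untreated cells (adjusted p = 0.8967 and 0.9222), with 95% intervals inside 0.3 of 0. NDUFA9, an accessory subunit of the matrix arm, read 9.40, 9.39 and 9.43 after YAP siRNA, above 9.25, 9.25 and 9.37 after nonsense siRNA and 9.31, 9.32 and 9.39 in untreated cells, and did not pass, with differences of 0.12 against nonsense siRNA and 0.07 against untreated cells (adjusted p = 0.3002 and 0.5658).

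Complex II, succinate dehydrogenase, also belongs to the tricarboxylic acid cycle. None of its 3 measured genes passed. SDHA, the flavoprotein that oxidises succinate, read 10.33, 10.28 and 10.24 after YAP siRNA, 10.17, 10.28 and 10.18 after nonsense siRNA and 10.29, 10.28 and 10.21 in untreated cells. The groups overlapped, and the differences of YAP siRNA were 0.08 against nonsense siRNA and 0.02 against untreated cells (adjusted p = 0.587 and 0.8873). SDHD, a membrane anchor, varied more between arrays, with 9.16, 9.07 and 8.95 after YAP siRNA, 9.21, 8.97 and 9.41 after nonsense siRNA and 8.65, 8.87 and 9.08 in untreated cells. For SDHD the difference of nonsense siRNA against untreated cells was 0.33 (adjusted p = 0.1315), but its second probe set gave -0.02, and 7 pseudogenes carry its name.

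Complex III passes electrons from ubiquinol to cytochrome c. None of its 9 genes passed, and their differences against nonsense siRNA ranged from -0.18 to 0.05. CYC1, which encodes the haem-carrying cytochrome c1, read 9.52, 9.56 and 9.47 after YAP siRNA, 9.49, 9.46 and 9.53 after nonsense siRNA and 9.59, 9.58 and 9.54 in untreated cells. UQCRC2, a core protein of the matrix side, read 9.76, 9.64 and 9.61 after YAP siRNA, 9.62, 9.61 and 9.74 after nonsense siRNA and 9.55, 9.56 and 9.53 in untreated cells. The YAP siRNA arrays of UQCRC2 lay above the untreated ones but overlapped those of nonsense siRNA, and the difference against untreated cells was 0.12 (adjusted p = 0.317). The lowest difference against nonsense siRNA was that of the pseudogene UQCRBP1 (-0.18, adjusted p = 0.2782), and UQCRC1, the other core protein, had the highest (0.05, adjusted p = 0.7949).

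**Figure D2:**
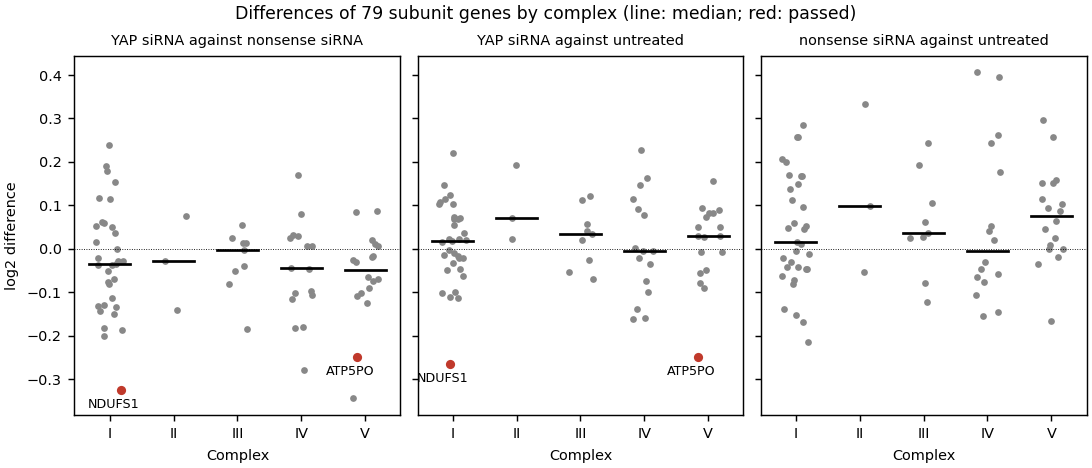
Log2 difference of each subunit gene in the 3 comparisons, by complex, with 1 point a gene, the median as a line and genes that passed in red. NDUFS1 and ATP5PO are the red points in both comparisons of YAP siRNA; no gene is red for nonsense siRNA against untreated cells, where the highest points are COX7B (0.41) and COX7C (0.39).

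Complex IV, cytochrome c oxidase, hands electrons to oxygen; its nuclear subunits surround a core encoded in mitochondrial DNA, and several exist as general and tissue-restricted isoforms. None of its 16 genes passed. COX4I1, the general isoform of the largest nuclear subunit, read 8.99, 8.80 and 8.94 after YAP siRNA, 8.93, 8.92 and 9.02 after nonsense siRNA and 8.97, 8.86 and 8.91 in untreated cells. COX5A, a matrix-side subunit, read 9.81, 9.71 and 9.78 after YAP siRNA, 9.81, 9.59 and 9.83 after nonsense siRNA and 9.66, 9.72 and 9.69 in untreated cells. For both genes the groups of YAP siRNA and nonsense siRNA overlapped, with differences of -0.05 for COX4I1 and 0.03 for COX5A (adjusted p = 0.8139 and 0.9184).

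The small subunit gene COX7C had the lowest difference of complex IV against nonsense siRNA (-0.28, adjusted p = 0.2505). Its signals were 8.85, 8.84 and 8.58 after YAP siRNA, 9.07, 8.69 and 9.34 after nonsense siRNA and 8.67, 8.62 and 8.63 in untreated cells. The YAP siRNA arrays overlapped both control groups, and the 3 nonsense siRNA arrays spread over a wider range than either other group. COX7B, another small subunit, read 7.23, 7.46 and 7.17 after YAP siRNA, 7.61, 7.17 and 7.62 after nonsense siRNA and 7.40, 6.97 and 6.81 in untreated cells. It had the largest differences of complex IV against untreated cells, 0.23 for YAP siRNA (adjusted p = 0.44) and 0.41 for nonsense siRNA (adjusted p = 0.1426). COX6A1 had the highest difference of complex IV against nonsense siRNA, 0.17 (adjusted p = 0.604), with untreated arrays that ran widely at 9.57, 9.93 and 10.26.

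The 6 tissue-restricted isoforms, known from heart, skeletal muscle, lung or testis, did not pass in any comparison. At an unadjusted p under 0.05 there were 0, 1 and 0 in the comparisons in the same order. The 1 was 16.7% of the 6, and the shares of all genes were 15.8%, 15.8% and 19.5%. COX7A1, the isoform of heart and skeletal muscle, read 6.71, 6.61 and 6.74 after YAP siRNA, 6.77, 6.83 and 6.78 after nonsense siRNA and 6.87, 6.85 and 6.83 in untreated cells. Its YAP siRNA arrays were below all controls, with differences of -0.11 and -0.16 against nonsense siRNA and untreated cells (adjusted p = 0.3515 and 0.1224). All signals of COX7A1 were below the median signal of all genes, 7.305. COX6A2, likewise a muscle isoform, had the lowest difference of complex IV for nonsense siRNA against untreated cells (-0.15, adjusted p = 0.3137).

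Complex V consists of a catalytic head, a ring of c subunits turned by protons, and a peripheral stalk that holds the head still. ATP5PO encodes OSCP, the stalk subunit that sits on top of the head. ATP5PO read 9.10, 9.10 and 9.02 on the YAP siRNA arrays, against 9.36, 9.34 and 9.26 on the nonsense siRNA arrays and 9.44, 9.22 and 9.31 on the untreated arrays. All 3 YAP siRNA arrays were below all 6 control arrays. ATP5PO fell by 0.25 on the log2 scale relative to nonsense siRNA (SE 0.0609, 95% interval -0.38 to -0.12, adjusted p = 0.02773), to 84.2% of that level. It also fell by 0.25 against untreated cells (95% interval -0.38 to -0.12, adjusted p = 0.03601). This call was less stable than that of NDUFS1. Against nonsense siRNA it was lost in 4 of 9 limma fits without 1 array (highest adjusted p = 0.1423, without nonsense siRNA replicate 1). Against untreated cells it was lost in 6 of 9 (0.1742, without untreated replicate 1). Quantile normalization moved the adjusted p against nonsense siRNA to 0.05549. Centring arrays on the gene median moved that against untreated cells to 0.06079. With every probe set tested, neither call held (0.1169 and 0.1496).

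The other 3 genes of the peripheral stalk did not pass. ATP5PF, whose upstream bases are shown above, read 8.44, 8.35 and 8.30 after YAP siRNA, 8.49, 8.32 and 8.36 after nonsense siRNA and 8.35, 8.28 and 8.47 in untreated cells, and the 3 groups overlapped. Its differences were -0.03 and -0.01 against nonsense siRNA and untreated cells (adjusted p = 0.897 and 0.9756). ATP5PB, the stalk's long membrane-anchored subunit, read 8.54, 8.41 and 8.45 after YAP siRNA, 8.56, 8.37 and 8.76 after nonsense siRNA and 8.13, 8.30 and 8.49 in untreated cells. Its difference of 0.16 against untreated cells was the highest of complex V there and did not pass (adjusted p = 0.4468).

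The 4 genes of the catalytic head and central stalk did not pass. ATP5F1A, the alpha subunit, read 10.40, 10.47 and 10.40 after YAP siRNA, 10.56, 10.23 and 10.53 after nonsense siRNA and 10.33, 10.36 and 10.35 in untreated cells. ATP5F1B, the catalytic beta subunit, read 11.94, 11.87 and 11.79 after YAP siRNA, 11.80, 11.84 and 11.90 after nonsense siRNA and 11.84, 11.80 and 11.71 in untreated cells. Against nonsense siRNA the differences were -0.02 for ATP5F1A and 0.02 for ATP5F1B (adjusted p = 0.9516 and 0.9317), with 95% intervals inside 0.3 of 0. ATP5F1D, the delta subunit of the central stalk, differed by 0.09 against nonsense siRNA and by -0.08 against untreated cells (adjusted p = 0.6203 and 0.6065). ATP5MK, a small membrane subunit linked to dimers of the enzyme, had the lowest difference of all 79 genes against nonsense siRNA, -0.34, and an adjusted p of 0.2718. Its signals were 8.33, 8.71 and 8.73 after YAP siRNA, 9.06, 8.49 and 9.24 after nonsense siRNA and 8.70, 8.43 and 8.77 in untreated cells, and its second probe set gave a difference of -0.05.

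**Figure D3:**
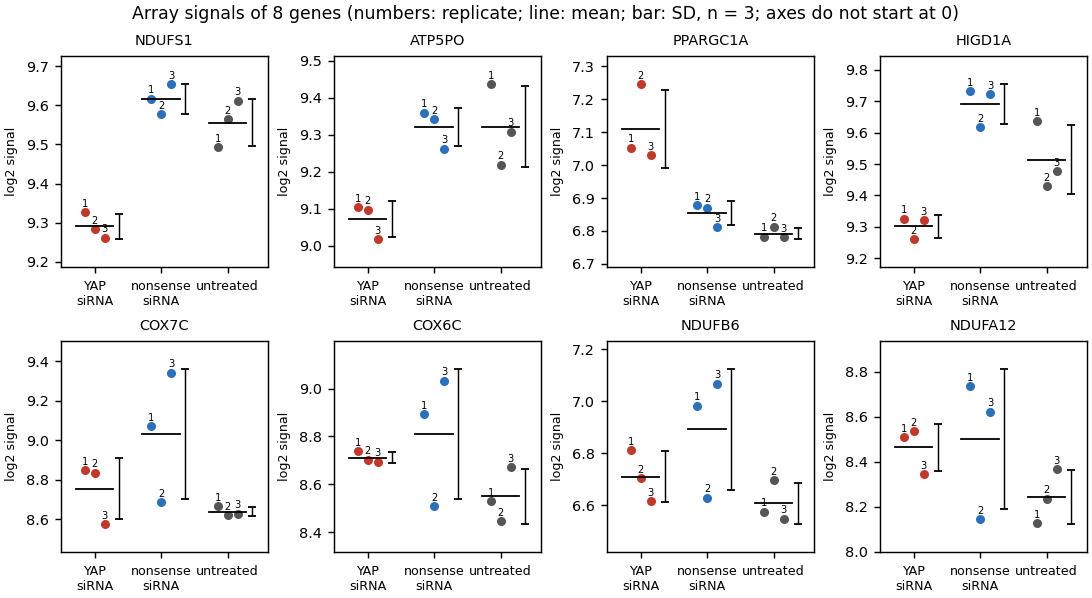
Log2 signal of 8 genes on the 9 arrays, numbered by replicate, with the group mean as a line and the SD (n = 3) as a bar; the axes do not start at 0. The YAP siRNA points of NDUFS1 and ATP5PO lie below all control points, those of PPARGC1A lie above them, and in COX7C, COX6C, NDUFB6 and NDUFA12 nonsense siRNA replicate 2 lies apart from replicates 1 and 3.

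The transfection control was compared with untreated cells, a contrast that holds the nonsense siRNA, its delivery and any difference in time in culture together. None of the 79 genes passed in either direction with all arrays, by limma; of all genes 0.277% were called lower and 0.337% higher. At an unadjusted p under 0.05 there were 19 of the 79 (24.1%), against 19.5% of all genes. The median difference over the 79 was 0.04, beside -0.02 over all genes, with a range of -0.22 to 0.41. For 74 of the 79 the 95% interval lay within 0.5 of 0, and for 50 within 0.3. The median of complex V was 0.08 and stayed above 0 whichever single array was left out. Those of the other complexes crossed 0 in at least 1 such fit (complex II, 0.10 with all arrays and -0.04 without nonsense siRNA replicate 3). The medians of the 79 genes together and of mitochondrial ribosomal protein, cytosolic ribosomal protein and proteasome genes also stayed above 0. Fits without a YAP siRNA array cannot change these medians.

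The spread between arrays of a group was wide for these genes. The SD within groups, pooled over the 3 groups, had a median of 0.105 over the 79 genes and 0.0721 over all genes, and 61 of the 79 were above the median of all genes. It was largest for ATP5MK at 0.280, COX7B at 0.247 and COX6A1 at 0.224. The median over the 79 genes of the signal minus the gene's own mean was 0.02, -0.02 and 0.00 on the YAP siRNA arrays, 0.05, -0.07 and 0.09 on the nonsense siRNA arrays and -0.05, -0.04 and 0.05 on the untreated arrays. The same median over all genes stayed between -0.02 and 0.02 on every array. Nonsense siRNA replicates 1 and 3 were thus the highest arrays for the respiratory chain and replicate 2 the lowest. Mitochondrial ribosomal protein genes (73), cytosolic ribosomal protein genes (57) and proteasome subunit genes (36), abundant housekeeping sets taken for comparison, had medians of -0.06, -0.03 and -0.03 on nonsense siRNA replicate 2 and of 0.09, 0.07 and 0.07 on replicate 3.

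**Figure D4:**
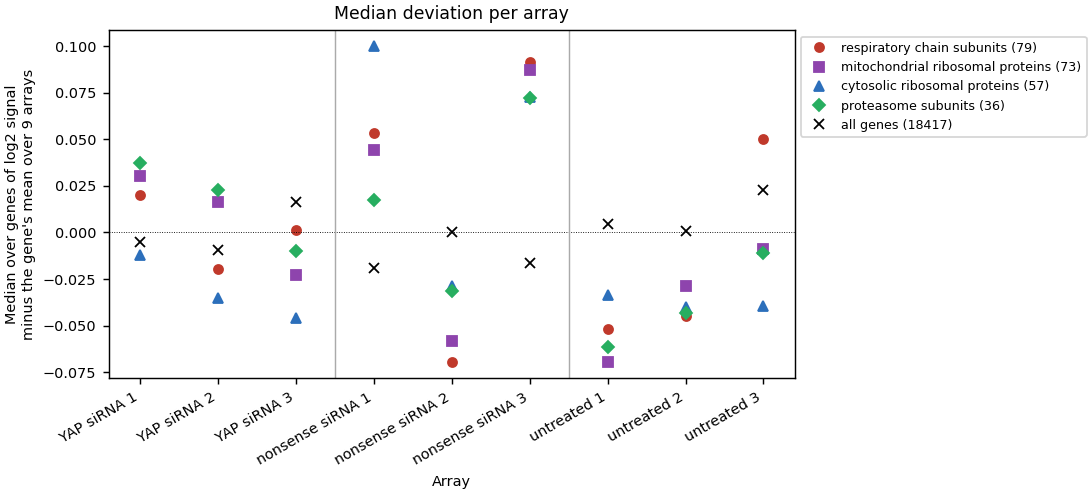
Median over the genes of each set of the log2 signal minus the gene's mean over the 9 arrays, for each array. The respiratory chain subunits are lowest on nonsense siRNA replicate 2 (-0.07) and highest on nonsense siRNA replicate 3 (0.09), while the median of all genes stays between -0.02 and 0.02.

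Leaving out nonsense siRNA replicate 2 changed the counts of the comparisons that use the nonsense siRNA group. The array was picked because these genes were low on it, so its removal raises their nonsense siRNA means and narrows their spread by construction, and the counts below are a description and no evidence of a difference. For nonsense siRNA against untreated cells, 23 of the 79 genes (29.1%) were then higher and none lower, where 5.6% of all genes were called higher. They were 9 of 33 genes of complex I, 1 of 3 of complex II, 1 of 9 of complex III, 5 of 16 of complex IV and 7 of 18 of complex V. The largest were COX7C at 0.57 (adjusted p = 0.002225), COX7B at 0.56 (0.01397) and ATP5MK at 0.52 (0.01272). With all arrays the second ATP5MK probe set gave 0.18, beside 0.30 for the one used here. NDUFA12, an accessory subunit of complex I, differed by 0.44 (0.005079) without that array, with 8.73, 8.15 and 8.62 on the 3 nonsense siRNA arrays against 8.13, 8.23 and 8.37 on the untreated arrays. NDUFB6, also of complex I, differed by 0.42 (0.003816), with 6.98, 6.63 and 7.07 against 6.57, 6.70 and 6.55. In COX7B, ATP5MK, NDUFA12 and NDUFB6 replicate 2 lay among the untreated arrays while replicates 1 and 3 lay above them. In COX7C all 3 nonsense siRNA arrays lay above the untreated ones, with replicate 2 at 8.69 just above the highest untreated array at 8.67.

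In that fit the other housekeeping sets were called higher in 12 of 73 mitochondrial ribosomal protein genes (16.4%), 14 of 57 cytosolic ribosomal protein genes (24.6%) and 8 of 36 proteasome genes (22.2%). For YAP siRNA against nonsense siRNA, 9 of the 79 (11.4%) were lower without replicate 2 and none higher, where 4.43% of all genes were called lower. In the same fit 3 of 73 mitochondrial ribosomal protein genes (4.11%), 12 of 57 cytosolic ribosomal protein genes (21.1%) and 4 of 36 proteasome genes (11.1%) were called lower. The 9 were NDUFS1, NDUFB2, NDUFB3 and NDUFB6 of complex I, COX6C, COX7A2 and COX7C of complex IV and ATP5MK and ATP5PO of complex V. For YAP siRNA against untreated cells, which does not use that array's mean, NDUFS1 and ATP5PO remained the only genes of the 79 called. The cause of the low signals of nonsense siRNA replicate 2 was not tested. Without it the median over the 79 was -0.09 for YAP siRNA against nonsense siRNA and 0.07 for nonsense siRNA against untreated cells. Without nonsense siRNA replicate 3 instead, these medians were -0.0032 and 0.02. In that fit 2 of the 79 (2.53%) were lower against nonsense siRNA, beside 1.6% of all genes. None was called for nonsense siRNA against untreated cells, beside 0.0217% of all genes higher and 0.0706% lower.

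Factors that act on respiratory chain genes were measured in the same arrays, with 17 genes listed and 17 measured. Against nonsense siRNA 1 was higher (5.88%, beside 1.92% of all genes) and 2 were lower (11.8%, beside 2.61%), and 8 had an unadjusted p under 0.05 (47.1%, beside 15.8%). Against untreated cells 2 were higher (11.8%, beside 1.63% of all genes) and none lower (beside 1.46%), and 4 had an unadjusted p under 0.05 (23.5%, beside 15.8%). PPARGC1A read 7.05, 7.25 and 7.03 after YAP siRNA, against 6.88, 6.87 and 6.81 after nonsense siRNA and 6.78, 6.81 and 6.78 in untreated cells. All 3 YAP siRNA arrays lay above all 6 control arrays, with replicate 2 highest. Every one of these signals was below the median signal of all genes, 7.305. PPARGC1A rose by 0.26 against nonsense siRNA (SE 0.0600, adjusted p = 0.02138) and by 0.32 against untreated cells (adjusted p = 0.007389). The call against nonsense siRNA was lost in 3 of 9 fits without 1 array (adjusted p = 0.1098 without YAP siRNA replicate 2), and that against untreated cells in none. When every probe set was fitted and tested, neither call held (adjusted p = 0.09686 and 0.06365). That fit changes the moderated estimate of the spread as well as the number of tests in the adjustment.

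GABPA, the DNA-binding subunit of GABP, read 7.97, 8.03 and 7.99 after YAP siRNA, against 8.23, 8.31 and 8.28 after nonsense siRNA and 8.25, 8.07 and 8.18 in untreated cells. It fell by 0.28 against nonsense siRNA (adjusted p = 0.009154, at most 0.04991 without 1 array and 0.05205 when every probe set was tested), and its difference against untreated cells was -0.17 (adjusted p = 0.1368). Its partner GABPB1 had 8.31, 8.41 and 8.30 after YAP siRNA, against 8.20, 7.98 and 8.19 after nonsense siRNA and 7.94, 8.15 and 8.03 in untreated cells. GABPB1 rose by 0.30 against untreated cells (adjusted p = 0.02801, lost in 4 of 9 fits without 1 array and at 0.1701 with every probe set), and its difference against nonsense siRNA was 0.21 (adjusted p = 0.1131). The 2 subunits of GABP thus lay on opposite sides of the controls. TFB1M, a methyltransferase of mitochondrial ribosomal RNA, fell by 0.27 against nonsense siRNA (adjusted p = 0.01418, lost in 3 of 9 such fits and at 0.07666 with every probe set). For NRF1 itself the difference was -0.06 and for TFAM, which packages and transcribes mitochondrial DNA, -0.18 (adjusted p = 0.7017 and 0.2859). Over the 17 genes the median difference against nonsense siRNA was -0.0048, and against untreated cells 0.04.

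Few of the genes around the chain passed. Of 43 measured assembly factors of 50 listed, 1 was higher (2.33%, beside 1.92% of all genes) and none lower against nonsense siRNA, with a median difference of 0.03. Against untreated cells 1 was higher (2.33%, beside 1.63% of all genes) and none lower, with a median of 0.07. These shares are near those of all genes. At an unadjusted p under 0.05 there were 11 (25.6%) and 7 (16.3%), each beside 15.8% of all genes. They were UQCC3, an assembly factor of complex III, at 0.18 against nonsense siRNA (adjusted p = 0.04542), and ATPAF1, an assembly factor of complex V, at 0.24 against untreated cells (adjusted p = 0.04548). Those calls were lost in 8 and 7 of 9 fits without 1 array. None of the 14 mobile electron carrier genes, meaning cytochrome c and the ubiquinone pathway, and none of 12 measured tricarboxylic acid cycle genes passed in any comparison by limma. At an unadjusted p under 0.05 there were 3 carrier genes (21.4%) and 3 cycle genes (25%) for YAP siRNA against nonsense siRNA, beside 15.8% of all genes. For YAP siRNA against untreated cells there were 3 (21.4%) and 1 (8.33%), beside 15.8%. For nonsense siRNA against untreated cells there were 4 (28.6%) and 2 (16.7%), beside 19.5%.

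HIGD1A, a small hypoxia-inducible protein of the inner membrane that associates with complex IV and has no symbol of the families above, also passed. It read 9.33, 9.26 and 9.32 after YAP siRNA, against 9.73, 9.62 and 9.72 after nonsense siRNA and 9.64, 9.43 and 9.48 in untreated cells. HIGD1A fell by 0.39 against nonsense siRNA, to 76.4% of that level (SE 0.0611, adjusted p = 0.0013), and in each of 9 fits without 1 array. Against untreated cells its difference was -0.21 (adjusted p = 0.08119), with all 3 YAP siRNA arrays below all 3 untreated arrays. It was 1 of 5 measured genes in a list of 6 subunit-like genes outside the symbol families, and the other 4 did not pass. That is 20% lower against nonsense siRNA, beside 2.61% of all genes, in a list too short to measure a share.

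Of 73 mitochondrial ribosomal protein genes 1 was lower against nonsense siRNA, MRPL44 (-0.24, adjusted p = 0.04495), which was lost in 7 of 9 fits without 1 array. Of 57 cytosolic ribosomal protein genes 3 were lower, RPL22 (-0.31), RPL26 (-0.34) and RPL31 (-0.39), which were lost in 4, 6 and 6 of 9 such fits. Of 36 proteasome subunit genes 1 was lower, PSMD10 (-0.39, adjusted p = 0.004247), in each such fit. None of the 57 was lower for YAP siRNA against untreated cells, where 1.46% of all genes were called lower. RPL22 (0.36) and RPL31 (0.48) were called higher for nonsense siRNA against untreated cells, 3.51% of the 57 beside 0.337% of all genes. Those 2 calls were lost in 5 and 7 of 9 fits without 1 array. The shares called lower against nonsense siRNA were 1.37%, 5.26% and 2.78%, beside 2.53% of the respiratory chain genes and 2.61% of all genes. The difference between these shares was not tested.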

How the data were processed

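Total RNA of 9 Hep3B samples was hybridised to Affymetrix gene arrays. The authors deposited log2 array signals. That unit was read from the range of the values; how background, summarisation and scaling between arrays were handled is not given in the sources used. Biotinylated cRNA was prepared and RNA extracted with a Nucleospin kit, per the labels' protocols. Of 33297 probe sets, 19460 had 1 gene in the annotation supplied; the brightest probe set stood for a gene. The members, the lists and the rule for named genes were chosen with earlier results of these data known. The rule named members that passed, the highest and lowest of each complex and comparison, a few standard subunits and up to 4 passing genes of each other list; NDUFA9, NDUFB2, NDUFB3, COX6C, COX7A2, ATP5PF, NDUFV2, NRF1 and TFAM were named after their values were seen.

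The 9 arrays entered 1 linear model with 3 group means (limma 3.58.1, R 4.3.3, prior degrees of freedom 9.29), and differences were tested two-sided and adjusted by Benjamini-Hochberg over 18417 genes at 0.05. The fit was tested on simulated data. Signals of different probes were not ranked against each other. For PPARGC1A and COX7A1 a place below the median signal is given only to mark a weak reading. Replicate numbers were not used to pair the arrays in the main fit. Of the 3 same-numbered pairs of YAP siRNA and nonsense siRNA arrays, 1 had a correlation of deviations above 0 (0.235) and 2 below (-0.298 and -0.337). For YAP siRNA and untreated arrays all 3 were above 0 (0.041, 0.251 and 0.344). For nonsense siRNA and untreated arrays 2 of 3 were (0.067, -0.173 and 0.034). The rule for pairing asked for more than 0.1 in every pair. Such correlations cannot show whether same-numbered arrays were handled together. The other scalings, filters, probe set rules, thresholds and array omissions tried are named in the closing section. Figures used Python 3.11.15 and matplotlib 3.10.9. The number of arrays limits the precision.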

Additional observations from a re-analysis of the deposited data

How the results depend on the processing

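The counts of passing subunit genes, the medians over all 79 and the named genes were recomputed under 20 alternatives. The sign changed in 0 of the 22 calls of named genes and in none of the 3 medians over the 79 genes, and in 50 values of uncalled genes. For single genes 2151 values kept their side of the threshold, 131 lost a call and 43 gained one; of the counts and medians 84 stayed and 21 moved. With all arrays, 2 subunit genes passed for YAP siRNA against nonsense siRNA, 2 against untreated cells and 0 for nonsense siRNA against untreated cells. For YAP siRNA against nonsense siRNA, 1 passed with quantile normalization, 1 when every probe set was tested and 1 at an adjusted p under 0.01, and 1 to 9 when 1 array was left out. Against untreated cells 1 passed with arrays centred on the gene median, 1 with every probe set and 1 at 0.01, and 1 to 2 when 1 array was left out. For nonsense siRNA against untreated cells 0 to 23 passed when 1 array was left out, the 23 without nonsense siRNA replicate 2.

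Without 3 arrays known from earlier results to stand apart (YAP siRNA replicate 3, nonsense siRNA replicate 2 and untreated replicate 3), 10 subunit genes passed for YAP siRNA against nonsense siRNA (0 higher and 10 lower; 2.8% and 4.19% of all genes), 8 for YAP siRNA against untreated cells (6 and 2; 5.32% and 3.15%) and 31 for nonsense siRNA against untreated cells (30 and 1; 8.44% and 4.15%, with 36.1% of proteasome and 33.3% of cytosolic ribosomal protein genes higher), and the median differences were -0.0958 for YAP siRNA against nonsense siRNA and 0.1113 for nonsense siRNA against untreated cells. In that fit ATP5PO was not called (adjusted p = 0.09395 and 0.05853 for the comparisons of YAP siRNA). Of the 79 genes, 70.9% were lowest of their group on nonsense siRNA replicate 2 and 62% highest on untreated replicate 3. Leaving out these arrays raises the nonsense siRNA mean and lowers the untreated mean of such genes by construction. YAP siRNA replicate 3 was lowest of its group for 45.6% and highest for 36.7%. The counts of this fit are therefore a description and no evidence of a difference. What else contributed to these changes was not tested. With the replicate number as a block, 2, 2 and 0 subunit genes passed; the block moved the adjusted p of GABPB1 against untreated cells to 0.05338. With 3 arrays a group, small differences could not be resolved, and for YAP siRNA against nonsense siRNA the 95% interval lay within 0.3 of 0 for 56 of 79 subunit genes.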
